A study of Mus musculus with 12 samples.

Results

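The 10 genes described here encode enzymes that make serine (Phgdh, Psat1, Psph), move its carbon unit through folate (Shmt1 and Mthfd1 in the cytosol, Shmt2, Mthfd2 and Mthfd1l in mitochondria) and make proline (Aldh18a1, Pycr1). They were taken by symbol from a table of 36144 genes, and all 10 were found and passed the filter on low values that left 11544 genes for testing. RNA was measured by poly-A sequencing in cultured hepatocytes prepared from a WT C57/Bl6J mouse, with 3 libraries in each of 4 groups. FDMn cells had 6 µM MnCl2 during the 16 h overnight culture without serum, followed by 10 µM forskolin and 1 µM dexamethasone for 5 h. FDI cells had 100 nM insulin for 1 h and then the same forskolin and dexamethasone for 5 h. FD cells had forskolin and dexamethasone alone, and Mock cells had none of these agents. All 4 groups spent the 16 h without serum. Forskolin activates adenylate cyclase and so raises cAMP, dexamethasone is a synthetic glucocorticoid, and together they mimic the hormones of fasting. No group had manganese or insulin without forskolin and dexamethasone. The exposures to manganese and insulin also differ in length, so agent and duration cannot be told apart.

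Serine is built from a glycolytic phosphoglycerate in a short path: Phgdh oxidises it, Psat1 transfers an amino group from glutamate, and Psph removes the phosphate. The Shmt enzymes split serine into glycine and a carbon unit bound to tetrahydrofolate, and the Mthfd enzymes interconvert that unit for purine, thymidylate and formate production. Proline is made from glutamate, first by Aldh18a1 and then by Pycr enzymes. Several of these genes are known targets of ATF4, a transcription factor that is translated when amino acids are short or the endoplasmic reticulum is stressed. The liver also breaks serine down to pyruvate for glucose production, through Sds.

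On the GRCm38 assembly Phgdh lies on chromosome 3 (98313170 to 98339990), Psat1 on chromosome 19 (15904678 to 15947337) and Psph on chromosome 5 (129765558 to 129787449). Shmt1 is on chromosome 11 (60788104 to 60811718), Mthfd1 on chromosome 12 (76255298 to 76319803), and Shmt2 on chromosome 10 (127517123 to 127522444). Mthfd2 is on chromosome 6 (83305691 to 83325908), Mthfd1l on chromosome 10 (3973118 to 4167081), Aldh18a1 on chromosome 19 (40550257 to 40588463) and Pycr1 on chromosome 11 (120635712 to 120643769). GENCODE M21 annotates all 10 as protein-coding. Shmt2 overlaps Ndufa4l2 on the opposite strand, which was at 65.9 to 97.5 TPM (a share of a library's transcripts, scaled by transcript length). Shmt1 overlaps Smcr8 on the opposite strand, at 11.3 to 25.3 TPM. Also on the opposite strand, Psph overlaps Cct6a, and Mthfd1 overlaps Gm47525 and Gm34868, for which no TPM was found. No source used here states whether strand was used, so reads of these pairs may not be separable. Phgdh has an annotated processed pseudogene, Phgdh-ps1.

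RefSeq promoter windows of GRCm38.p6, 250 bases before to 50 after each start, were found for all 10 genes, with 2 start sites for Psat1. For Mthfd1 and Mthfd1l, the 50 bases after the start were not found in any GENCODE M21 transcript of the gene. The stretches below are shown for the 5 genes that fell in FD and were higher in FDI than in FD, and for Pycr1 and Shmt2, which did not follow that pattern. Each is 100 bases and ends just before the start site, except Pycr1, whose stretch runs from 148 to 49 bases before it. Capitals mark matches, on either strand, to an ATF4-C/EBP element (TGATGNAAN), an E-box (CACGTG), an antioxidant response element (TGACNNNGC) or a CCAAT box (CCAAT).
Phgdh (GRCm38.p6, chr3:98339970-98340069, minus strand): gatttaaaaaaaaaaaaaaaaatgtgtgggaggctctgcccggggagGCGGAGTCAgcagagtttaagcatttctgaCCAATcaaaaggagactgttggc
Psat1, upstream start site (GRCm38.p6, chr19:15925060-15925159, minus strand): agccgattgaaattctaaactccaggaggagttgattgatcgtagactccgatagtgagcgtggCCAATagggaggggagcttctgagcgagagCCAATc
Psat1, downstream start site (GRCm38.p6, chr19:15924623-15924722, minus strand): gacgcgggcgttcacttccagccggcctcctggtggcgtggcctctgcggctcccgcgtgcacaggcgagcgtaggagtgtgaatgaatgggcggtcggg
Psph (GRCm38.p6, chr5:129787254-129787353, minus strand): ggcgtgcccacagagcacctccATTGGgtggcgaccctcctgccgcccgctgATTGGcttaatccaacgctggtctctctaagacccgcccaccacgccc
Mthfd2 (GRCm38.p6, chr6:83317605-83317704, minus strand): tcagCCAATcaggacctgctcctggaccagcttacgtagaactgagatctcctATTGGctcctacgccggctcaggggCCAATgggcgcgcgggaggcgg
Aldh18a1 (GRCm38.p6, chr19:40588464-40588563, minus strand): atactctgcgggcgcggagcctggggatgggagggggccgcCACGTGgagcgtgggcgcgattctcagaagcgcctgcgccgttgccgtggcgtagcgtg
Pycr1 (GRCm38.p6, chr11:120643797-120643896, minus strand): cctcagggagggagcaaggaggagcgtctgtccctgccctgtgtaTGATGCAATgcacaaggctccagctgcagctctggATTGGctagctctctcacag
Shmt2 (GRCm38.p6, chr10:127522445-127522544, minus strand): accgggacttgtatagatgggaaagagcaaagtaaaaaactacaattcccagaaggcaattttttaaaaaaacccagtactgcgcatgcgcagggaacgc

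The ATF4-C/EBP element was found in 1 of the 11 windows, that of Pycr1, against 3.95% of all 32851 windows. The E-box was in 1, that of Aldh18a1, against 7.15% of all windows. The antioxidant response element was in 2, those of Phgdh and Psph, against 12.4% of all windows; the Psph match lies after the start site. The short cAMP response element TGACG was in 4 (Psph, Shmt1, Mthfd1l, Aldh18a1), against 20.8% of all windows. No member window held the full cAMP response element TGACGTCA (1.79% of all windows), the FOXO element TGTTTAC (3.65%) or a palindromic glucocorticoid receptor element (0.00913%). CCAAT, searched after the sequences had been read, was in 7 of the 11 windows against 37.4% of all windows, and Mthfd2 held 3 copies within 96 bases of its start. In Psph the antioxidant response element overlaps a TGACG match. A match is only a run of letters, and elements outside these windows were not searched.

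Across the 12 libraries 10900 to 11161 genes reached 1 TPM, and the correlation across genes between replicates was 0.981 to 0.991. FD replicate 3 stood apart from FD replicates 1 and 2 on the second principal component (7.98 against 22.3 and 29.0). Results were also computed without it, as without each of the other libraries in turn. Hepatocyte markers summed to 32042 to 32781 TPM in FDMn, 27136 to 27793 TPM in FDI, 27609 to 37413 TPM in FD and 29244 to 30173 TPM in Mock. Most of that sum was albumin (Alb), at 22527 to 32589 TPM over the 12 libraries. Serpina1a was at 1361 to 1634 TPM, Apoa1 at 1194 to 1700 TPM, Ttr at 714 to 1164 TPM and Cyp3a11 at 483 to 664 TPM. Hnf4a ranged from 51.0 to 208 TPM. Kupffer cell markers summed to 6.50 to 7.73 TPM in FDMn, 4.58 to 5.72 TPM in FDI, 4.43 to 5.72 TPM in FD and 3.53 to 4.73 TPM in Mock. Endothelial markers summed to 23.0 to 26.2 TPM in FDMn, 16.8 to 22.2 TPM in FDI, 19.1 to 27.8 TPM in FD and 15.5 to 16.3 TPM in Mock. The FDMn libraries were thus highest for Kupffer markers and the Mock libraries lowest for endothelial markers. Stellate markers summed to 3.18 to 4.87 TPM and lymphocyte markers to at most 0.367 TPM. The 6 cholangiocyte markers summed to 1412 to 1606 TPM in FDMn, 762 to 809 TPM in FDI, 732 to 803 TPM in FD and 1082 to 1126 TPM in Mock. That sum was nearly all Spp1, Cldn4 and Sox9, while Krt7, Krt19 and Epcam, which define bile duct cells, did not exceed 1.24 TPM in any library. The part of these other cell types in the results was not tested. The stellate marker Colec11 and the lymphocyte marker Nkg7 were at 0 TPM in all 12. In bulk RNA, fewer cells of a type and less RNA per cell cannot be told apart. The labels describe a single mouse and do not say whether replicates were separate cultures. Every p-value below thus rests on the spread among these libraries, which may be technical.

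In FD cells the serine genes Phgdh, Psat1 and Psph, the mitochondrial folate gene Mthfd2 and the proline gene Aldh18a1 fell against Mock, and mitochondrial Shmt2 rose. Of the 10 genes 5 fell and 1 rose in FD against Mock, where 29.9% of all genes tested fell and 11.2% rose (limma, adjusted p under 0.05). The median log2 change of the 10 genes was −0.40, against −0.15 for all genes. The median of all genes was −0.0041 after median-of-ratios scaling, which gave 2059 genes higher and 1972 lower in place of 1296 and 3447. With that scaling 2 of the 10 genes were higher and 5 lower, the added one being Pycr1. The replicates of FD and Mock did not overlap for the 6 called genes, and for 48% of all genes. All 6 calls held without FD replicate 3.

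The 5 genes that had fallen, and Shmt2, were higher in FDI than in FD. In FDI against FD 6 of the 10 genes rose and 0 fell, where 10.2% of all genes rose and 4.35% fell. The median log2 change was 0.55 for the 10 genes and 0.04 for all genes. At an unadjusted p under 0.05, 7 were higher and 0 lower. Replicates did not overlap for 5 of the 10 genes and for 30.8% of all genes. In FDMn 4 of the 5 were higher than in FD, Psat1, Psph, Mthfd2 and Aldh18a1. In FDMn against FD 4 of the 10 genes rose and 0 fell, where 7.22% of all genes rose and 7.9% fell, with a median of 0.11 for the 10 genes and 0.00 for all. The unadjusted p was under 0.05 for 2 lower genes, Shmt1 and Mthfd1. Shares of all genes at an unadjusted p are not given here for either comparison. Replicates of FDMn and FD did not overlap for 5 of the 10 genes and for 33% of all genes. Both comparisons use the same FD libraries, as does FD against Mock, by which the 5 genes were picked out. The values of these comparisons are thus not independent.

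The direct comparison of FDMn with FDI asked whether these genes differed in level between manganese and insulin. In it 7 of the 10 genes were lower in FDMn and 0 were higher, where 11.9% of all genes were lower and 5.68% higher (median −0.41 for the 10 genes and −0.04 for all). At an unadjusted p under 0.05, 8 were lower and 0 higher, but the share of all genes at that threshold is not given here. Replicates did not overlap for 9 of the 10 genes and for 40.5% of all genes. The 3 genes that did not pass were Shmt1, Mthfd1 and Pycr1. The count of 7 was 4 without FDI replicate 1, without FDMn replicate 1 or without FDMn replicate 2.

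**Figure D1:**
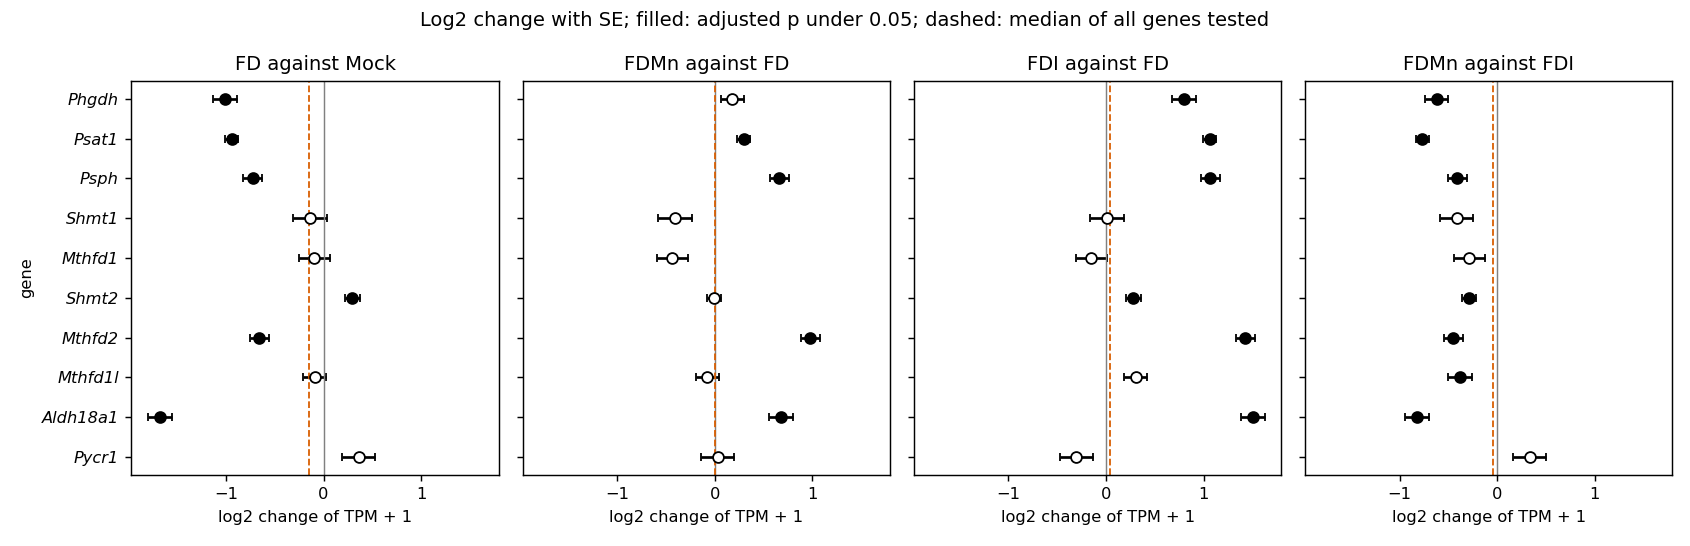
Log2 change of TPM + 1 with its SE for the 10 genes in 4 comparisons; filled points passed an adjusted p of 0.05, the grey line is 0 and the dashed line the median of all genes tested. Aldh18a1 lay farthest left in FD against Mock (−1.67) and farthest right in FDI against FD (1.50).

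All 3 serine genes fell in FD. Phgdh, which commits carbon to serine, was at 40.7, 46.5 and 43.0 TPM in FDMn, 73.2, 61.6 and 66.9 TPM in FDI, 31.8, 37.6 and 46.0 TPM in FD and 86.2, 71.8 and 75.3 TPM in Mock. The FDI and Mock libraries were high, the FD and FDMn libraries low, and FDMn overlapped FD. The log2 change was −1.01 ± 0.12 in FD against Mock (SE, adjusted p = 3.5e-05) and 0.80 ± 0.12 in FDI against FD (adjusted p = 0.00095). In FDMn against FD it was 0.18 ± 0.12, which did not pass (adjusted p = 0.34). Against FDI, FDMn was lower by a log2 change of −0.62 ± 0.12 (adjusted p = 0.0042). It was also lower than Mock, at 0.558-fold of the Mock mean (adjusted p = 0.00016).

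Psat1, the aminotransferase, had the smallest SE of the 3 serine genes. It was at 74.0, 67.4 and 69.2 TPM in FDMn, 118, 125 and 118 TPM in FDI, 57.8, 52.4 and 61.0 TPM in FD and 108, 116 and 107 TPM in Mock. Every FDMn library lay above every FD library and below every FDI and Mock library. Psat1 changed by −0.94 ± 0.07 on the log2 scale in FD against Mock (SE, adjusted p = 3.7e-07), 1.06 ± 0.07 in FDI against FD (adjusted p = 1.4e-06) and 0.30 ± 0.07 in FDMn against FD (adjusted p = 0.012). The call in FDMn against FD ended without FDMn replicate 1 (adjusted p = 0.056) and in a fit of only these 2 groups (adjusted p = 0.053). FDMn was lower than FDI by a log2 change of −0.77 ± 0.07 (adjusted p = 1.6e-05) and stood at 0.636-fold of Mock (adjusted p = 1e-05).

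Psph, the phosphatase of the last step, was at 32.7, 32.0 and 37.5 TPM in FDMn, 49.3, 43.4 and 43.8 TPM in FDI, 20.8, 18.7 and 24.1 TPM in FD and 36.4, 37.0 and 33.4 TPM in Mock. Here the FDMn libraries overlapped Mock, and all 3 FDI libraries were higher than any Mock library. The log2 change was −0.73 ± 0.10 in FD against Mock (SE, adjusted p = 9.2e-05), 1.07 ± 0.10 in FDI against FD (adjusted p = 2.2e-05) and 0.66 ± 0.10 in FDMn against FD (adjusted p = 0.00083). FDMn against Mock gave −0.06 ± 0.10 and did not pass (adjusted p = 0.64). The FDMn libraries were below FDI by −0.41 ± 0.10 (adjusted p = 0.014), a call that ended without FDI replicate 1, FDMn replicate 1 or FDMn replicate 2 (adjusted p = 0.058, 0.054 and 0.058). Psph was 1.28-fold higher in FDI than in Mock (adjusted p = 0.015), which did not pass without Mock replicate 3 (0.060) or FDI replicate 1 (0.064).

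The 3 serine genes summed to 147, 146 and 149.7 TPM in FDMn, 240.1, 229.9 and 229 TPM in FDI, 110.5, 109 and 131 TPM in FD and 230.3, 225 and 216 TPM in Mock. The 10 genes together summed to 390.4 ± 2.27 TPM in FDMn, 546 ± 14.4 in FDI, 351 ± 12.6 in FD and 472 ± 19.6 in Mock (SD, n = 3 each). In each library Psat1 was the highest of the 3 and Psph the lowest. Psat1 over Psph was 2.07 ± 0.213 in FDMn, 2.66 ± 0.250 in FDI, 2.70 ± 0.151 in FD and 3.11 ± 0.132 in Mock (SD, n = 3 each). The 3 FDMn libraries had the lowest values of this ratio, on which no test was run.

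**Figure D2:**
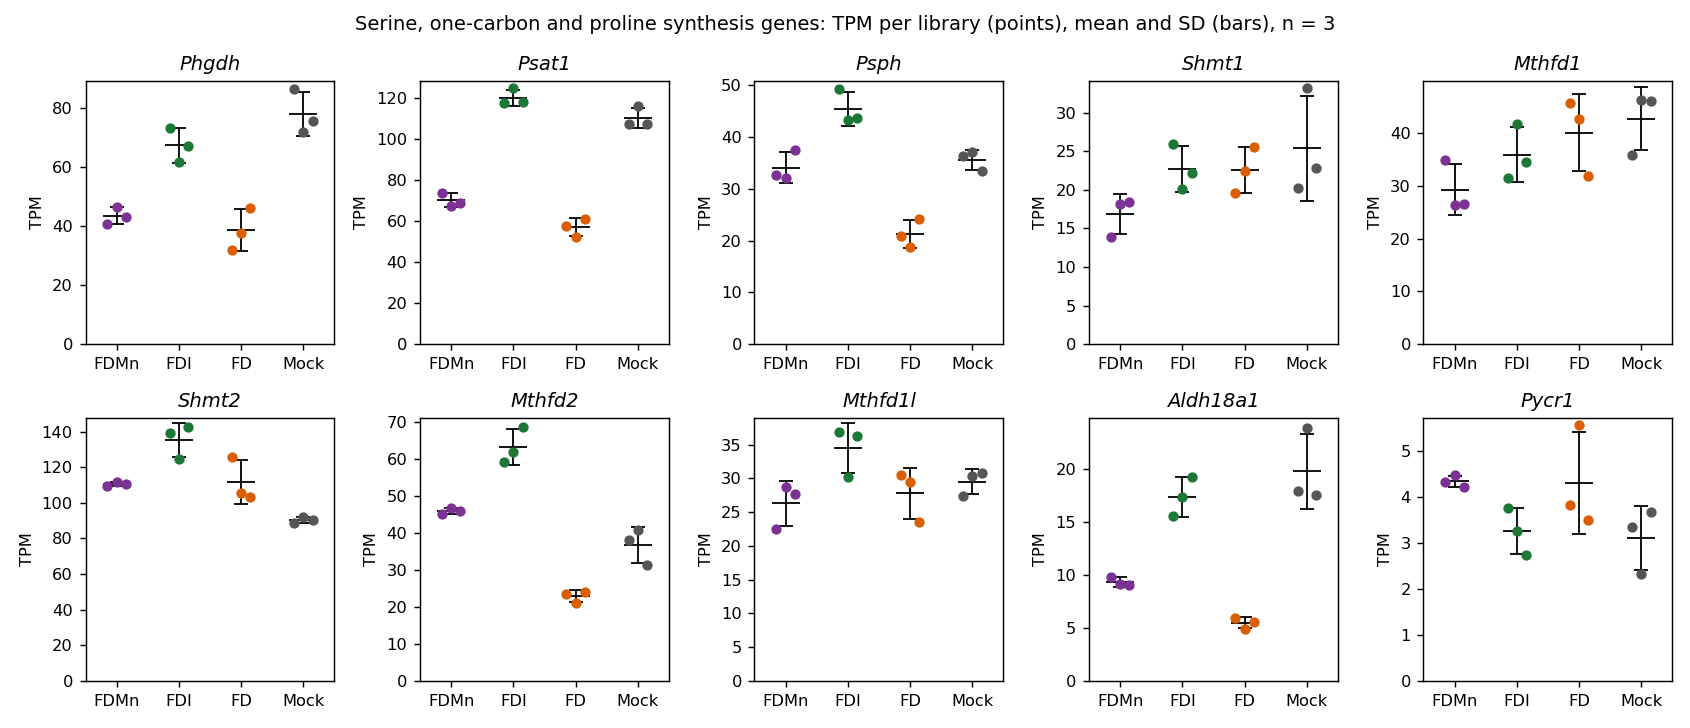
TPM of each of the 10 genes in the 12 libraries (points), with the group mean and SD (bars, n = 3). Phgdh, Psat1, Psph, Mthfd2 and Aldh18a1 have their lowest mean in FD and are higher in FDI. Shmt1, Shmt2, Mthfd1, Mthfd1l and Pycr1 overlap between FD and FDI.

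Among the mitochondrial folate genes Mthfd2 had the widest range. Mthfd2, a dehydrogenase and cyclohydrolase, was at 45.3, 46.8 and 45.9 TPM in FDMn, 59.1, 62.0 and 68.8 TPM in FDI, 23.4, 21.1 and 24.1 TPM in FD and 38.1, 40.9 and 31.3 TPM in Mock. The groups did not overlap, in the order FD, Mock, FDMn, FDI from low to high. Mthfd2 changed by −0.66 ± 0.10 on the log2 scale in FD against Mock (SE, adjusted p = 0.00018), 1.43 ± 0.10 in FDI against FD (adjusted p = 2.4e-06) and 0.98 ± 0.10 in FDMn against FD (adjusted p = 5.1e-05). Mthfd2 was lower in FDMn than in FDI by −0.45 ± 0.10 (adjusted p = 0.0074). Both groups also stood above Mock. FDMn was 1.25-fold of Mock (adjusted p = 0.017) and FDI 1.72-fold of Mock (adjusted p = 5.4e-05). The FDMn call against Mock ended without Mock replicate 3 (adjusted p = 0.070) or FDMn replicate 2 (adjusted p = 0.052).

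Shmt2, which splits serine in mitochondria, went the other way from Mthfd2 in FD. It was at 109.6, 111 and 111 TPM in FDMn, 139, 125 and 143 TPM in FDI, 126, 106 and 103 TPM in FD and 88.5, 92.2 and 90.4 TPM in Mock. Every library given forskolin and dexamethasone lay above every Mock library. Shmt2 changed by 0.30 ± 0.08 on the log2 scale in FD against Mock (SE, adjusted p = 0.0077), and FDMn was at 0.992-fold of FD (adjusted p = 0.97). FDI was 1.21-fold of FD (adjusted p = 0.027) with replicates that overlapped. That call ended without FD replicate 2, FD replicate 3, FDI replicate 1 or FDI replicate 3 (adjusted p = 0.089, 0.065, 0.086 and 0.099). It also ended with no filter (0.052), median-of-ratios scaling (0.057) and a fit of the 2 groups alone (0.12). FDI was 1.50-fold of Mock (adjusted p = 7.8e-05) and FDMn 1.22-fold of Mock (adjusted p = 0.0085). FDMn was lower than FDI by a log2 change of −0.29 ± 0.08 (adjusted p = 0.021), which ended with quantile normalization (adjusted p = 0.086). It also ended without FDI replicate 1 or 3 (0.069 and 0.079) and without FDMn replicate 1, 2 or 3 (0.064, 0.055 and 0.059).

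Mthfd1l, which releases formate from mitochondrial folate, varied least of the 10 genes around its own mean (root mean square 0.19 on the log2 scale). It was at 22.5, 28.7 and 27.6 TPM in FDMn, 36.9, 30.2 and 36.3 TPM in FDI, 30.5, 29.4 and 23.5 TPM in FD and 27.4, 30.3 and 30.8 TPM in Mock. FDI replicates 1 and 3 were high, and FDMn, FD and Mock overlapped each other. FDMn against FDI passed (log2 change −0.38 ± 0.12, SE, adjusted p = 0.047), but this call ended in 12 of 20 alternatives. Among them were those without any single Mock library (adjusted p = 0.053 to 0.059), FDI replicate 1 or 3 (0.15 and 0.13) or FDMn replicate 1, 2 or 3 (0.18, 0.053 and 0.075). FDI against FD did not pass (0.30 ± 0.12, adjusted p = 0.11).

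Replicates of the cytosolic pair were widely spread. Shmt1, the cytosolic partner of Shmt2, was at 13.8, 18.2 and 18.5 TPM in FDMn, 26.0, 20.1 and 22.2 TPM in FDI, 19.6, 22.4 and 25.5 TPM in FD and 20.3, 33.1 and 22.8 TPM in Mock. Mock replicate 2 was high, and the FDMn libraries lay below all others. FDMn against FD gave a log2 change of −0.40 ± 0.17 (SE, adjusted p = 0.14) and FDMn against FDI −0.42 ± 0.17 (adjusted p = 0.12), neither past the threshold. FDMn was lower than Mock by −0.55 ± 0.17 (adjusted p = 0.024), and without Mock replicate 2 the change was −0.35 and did not pass (adjusted p = 0.095). The call also ended without FDMn replicate 1 (0.099), with no filter (0.064) and with either scaling (0.10 and 0.083).

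Mthfd1, the trifunctional folate enzyme of the cytosol, was at 35.0, 26.4 and 26.6 TPM in FDMn, 31.5, 41.7 and 34.5 TPM in FDI, 45.7, 42.7 and 31.9 TPM in FD and 35.9, 46.2 and 46.1 TPM in Mock. FD, FDI and Mock overlapped, and 2 of the 3 FDMn libraries were the lowest of the 12. The log2 change in FDMn against FD was −0.43 ± 0.16 (SE, adjusted p = 0.089). It passed without FD replicate 3, where it was −0.59 (adjusted p = 0.024). Mthfd1 was lower in FDMn than in Mock by −0.53 ± 0.16 (adjusted p = 0.018). That call ended in 7 alternatives, among them those without Mock replicate 2 or 3 or FDMn replicate 2 or 3 (adjusted p = 0.061, 0.062, 0.066 and 0.065).

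Levels of the folate genes can be set beside each other because TPM is scaled by length. Within each library Shmt2 was above Shmt1, by 6.68 ± 1.08 times in FDMn, 6.00 ± 0.567 in FDI, 5.05 ± 1.22 in FD and 3.71 ± 0.824 in Mock (SD, n = 3 each). The FD and Mock values overlapped, at 4.04 to 6.40 and 2.78 to 4.37. Mthfd2 over Mthfd1 was 1.29, 1.77 and 1.73 in FDMn, 1.88, 1.49 and 2.00 in FDI, 0.512, 0.494 and 0.756 in FD and 1.06, 0.886 and 0.679 in Mock. Mthfd2 thus exceeded Mthfd1 in every FDMn and FDI library and in no FD library. Shmt2 over Mthfd2 was 2.38 to 2.42 in FDMn, 2.01 to 2.35 in FDI, 4.28 to 5.37 in FD and 2.25 to 2.89 in Mock. No test was run on these ratios. Reads of Shmt2 and Ndufa4l2, and of Shmt1 and Smcr8, may not be separable, and the ratios were not corrected for this.

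**Figure D3:**
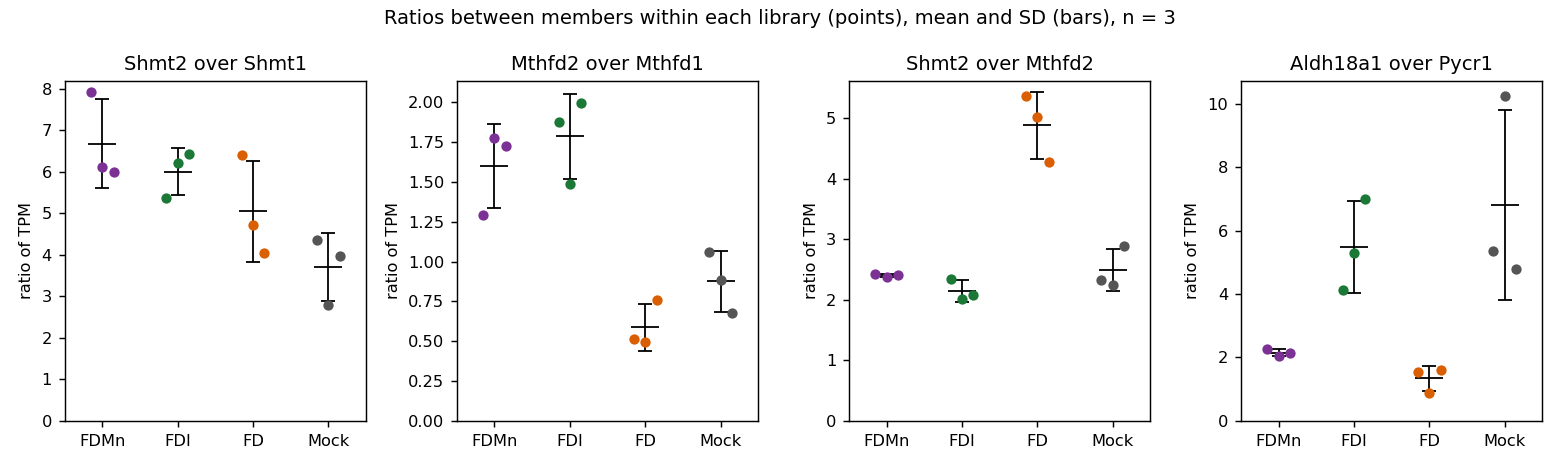
Ratios of TPM between pairs of the genes in each library (points), with the group mean and SD (bars, n = 3). Shmt2 over Mthfd2 is 2.01 to 2.89 in the other groups against 4.28 to 5.37 in FD, and Aldh18a1 over Pycr1 is lowest in FD. Reads of Shmt2 and Shmt1 may not be separable from those of genes that overlap them.

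Of the 2 proline genes, Aldh18a1 fell in FD and Pycr1 did not pass. Aldh18a1, which turns glutamate into the pyrroline precursor, was at 9.85, 9.17 and 9.03 TPM in FDMn, 15.5, 17.3 and 19.2 TPM in FDI, 5.95, 4.91 and 5.57 TPM in FD and 17.9, 23.9 and 17.6 TPM in Mock. FD libraries were lowest, FDMn libraries lay between, and FDI overlapped Mock. The log2 change was −1.67 ± 0.12 in FD against Mock (SE, adjusted p = 5e-07), 1.50 ± 0.12 in FDI against FD (adjusted p = 1e-05) and 0.68 ± 0.12 in FDMn against FD (adjusted p = 0.0031). Aldh18a1 was lower in FDMn than in FDI by −0.82 ± 0.12 (adjusted p = 0.00075) and stood at 0.472-fold of Mock in FDMn (adjusted p = 4.5e-05). Of the 10 genes it had the widest range over the 12 libraries, 4.86-fold from lowest to highest.

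Pycr1, which reduces the pyrroline intermediate to proline in mitochondria, was the lowest of the 10 genes in every group. It was at 4.33, 4.47 and 4.22 TPM in FDMn, 3.76, 3.27 and 2.75 TPM in FDI, 3.83, 5.57 and 3.50 TPM in FD and 3.34, 2.33 and 3.67 TPM in Mock. FD replicate 2 was high, Mock replicate 2 low, and FD overlapped the other 3 groups. None of its 6 comparisons passed on TPM. FD against Mock gave a log2 change of 0.36 ± 0.17 (SE, adjusted p = 0.11), which passed with median-of-ratios scaling (0.49, adjusted p = 0.045) and quantile normalization (0.52, adjusted p = 0.035). FDMn against Mock gave 0.39 ± 0.17 (adjusted p = 0.083) and passed with the same scalings (adjusted p = 0.035 and 0.033) and without FD replicate 2 (adjusted p = 0.047). Aldh18a1 over Pycr1 was 2.15 ± 0.113 in FDMn, 5.48 ± 1.44 in FDI, 1.34 ± 0.399 in FD and 6.80 ± 3.00 in Mock (SD, n = 3 each).

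Set against untreated cells, 2 of the 10 genes were higher and 5 lower in FDMn, where 12% and 30.6% of all genes were higher and lower. In FDI 3 were higher and 0 lower, where 12.9% and 25.4% of all genes were. The 2 higher in FDMn were Shmt2 and Mthfd2, and the 3 higher in FDI were those and Psph. At an unadjusted p under 0.05 also, 3 were higher and 0 lower in FDI, with no share of all genes given at that threshold. Replicates did not overlap with Mock for 8 of the 10 genes in FDMn and 4 in FDI, where 55.2% and 51.1% of all genes did not. In FDMn the 5 lower became 3 without Mock replicate 2, and the 2 higher became 1 without Mock replicate 3 or FDMn replicate 2. Median-of-ratios scaling gave 3 higher and 3 lower in FDMn, and 4 higher in FDI, the added gene being Psat1 (adjusted p = 0.013, against 0.17 on TPM). The share of all genes called lower also depended on scaling, with 2115 higher and 2035 lower in FDMn and 2191 higher and 1957 lower in FDI after median-of-ratios scaling.

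The profiles of the 10 genes were set beside each other after each was centred on its own mean over the 12 libraries. The closest pair was Phgdh and Psat1, with a root mean square difference of 0.20 on the log2 scale, then Shmt2 and Mthfd1l (0.20) and Psph and Mthfd2 (0.22). The farthest pair was Aldh18a1 and Pycr1, the 2 proline genes (0.88). The same measure named the genes of the whole table closest to each member that passed in FDMn against FD. Closest to Mthfd2 were Cth (0.11), which makes cysteine from cystathionine, Inhbe (0.12) and Dusp5 (0.19). Closest to Psph were Asns (0.13), the asparagine synthetase, Phf10 (0.14) and Ier2 (0.15). For Psat1 they were Nop56 (0.10), Aqp9 (0.13) and Inip (0.13), and for Aldh18a1 the amino acid transporter Slc7a5 (0.19), Fam84b (0.21) and the serine carrier Slc1a4 (0.23). As an example, Cth was at 108 ± 1.49 TPM in FDMn, 135 ± 7.82 in FDI, 59.8 ± 2.67 in FD and 85.7 ± 8.66 in Mock (SD, n = 3 each).

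Some genes that use serine or glycine rose in FD. Sds, which deaminates serine to pyruvate, was at 33.5, 18.1 and 23.9 TPM in FD, against 0.792, 0.602 and 0.730 TPM in Mock (log2 change 3.89, adjusted p = 4.7e-09). Gldc, the decarboxylase of the glycine cleavage system, was at 67.3, 65.3 and 70.4 TPM in FD, against 16.8, 16.4 and 18.0 TPM in Mock (1.93, adjusted p = 2.2e-10). The FD and Mock libraries did not overlap for Sds or for Gldc. Other genes of the glycine cleavage system did not follow Gldc. Amt was at 9.61 to 11.4 TPM in FD against 14.6 to 16.2 TPM in Mock. Gcsh was at 41.6 to 51.3 TPM in FD against 61.1 to 64.3 TPM in Mock. Dld overlapped, at 84.2 to 106 TPM in FD and 101 to 103 TPM in Mock. Of 12 measured genes of serine and glycine breakdown 4 rose and 3 fell in FD (median log2 change 0.02), and 5 and 2 with median-of-ratios scaling. That scaling gave 2059 of all genes higher and 1972 lower in FD, and the shares below are for TPM without it. Of all genes 11.2% rose and 29.9% fell in FD. The shares were 7.22% and 7.9% in FDMn against FD and 10.2% and 4.35% in FDI against FD. FDMn against FD gave 2 higher and 1 lower, and 2 and 0 with quantile normalization, where 867 of all genes rose and 885 fell. On TPM, FDMn against FD gave 0 and 0 without FD replicate 1 or FDMn replicate 1, 2 or 3. Without FD replicate 2 or FDI replicate 2, 0 were higher, and without FDI replicate 1 or 3, 1 was. In FDI against FD 0 rose and 1 fell, the glycerate kinase gene Glyctk. At an unadjusted p under 0.05, with no share of all genes given, 1 rose. Without FD replicate 1, 1 was called higher. Sds was at 24.9, 26.4 and 24.0 TPM in FDMn and 22.8, 19.9 and 25.0 TPM in FDI, values all far above Mock.

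Carriers of serine and other neutral amino acids were mixed. Of 8 measured 1 rose and 3 fell in FD, 1 rose and 1 fell in FDMn against FD, and 3 rose and 1 fell in FDI against FD. The shares of all genes rising and falling were 11.2% and 29.9%, 7.22% and 7.9%, and 10.2% and 4.35% in these comparisons. With median-of-ratios scaling 2 rose and 3 fell in FD, where 2059 of all genes rose and 1972 fell. Without FD replicate 2, 2 rose in FD and 2 fell in FDMn against FD. The 1 that fell in FDI against FD became 0 without FD replicate 1 or FDI replicate 1 or 2. Slc1a4, a carrier of serine, alanine and other small amino acids, was at 8.91, 8.78 and 9.39 TPM in FDMn, 11.7, 11.9 and 13.3 TPM in FDI, 5.00, 4.47 and 4.73 TPM in FD and 15.3, 12.9 and 14.2 TPM in Mock. Its log2 change was −1.40 in FD against Mock (adjusted p = 1.7e-07), 1.22 in FDI against FD (adjusted p = 4.7e-06) and 0.81 in FDMn against FD (adjusted p = 0.00015). Its FDMn libraries thus lay between FD and FDI without overlap. Slc38a4 went the other way, at 1.998-fold of Mock in FD (adjusted p = 1.2e-07) and 0.716-fold of FD in FDMn (adjusted p = 4e-04).

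Other folate genes were mixed. Of 19 measured 2 rose and 6 fell in FD, though 2 and 2 with either median-of-ratios scaling or quantile normalization. Without FD replicate 1 or 2, 3 rather than 6 fell. With median-of-ratios scaling 2059 of all genes rose and 1972 fell in FD, and with quantile normalization 1782 and 2178. The shares below are for TPM without further scaling. Of all genes 11.2% rose and 29.9% fell in FD. The shares were 7.22% and 7.9% in FDMn against FD and 10.2% and 4.35% in FDI against FD. FDMn against FD gave 3 higher and 1 lower. In FDI against FD 2 rose and 0 fell (5 and 0 at an unadjusted p under 0.05, with no share of all genes given). Without FD replicate 3, 4 rose in FDI. Among the 2 was the folate carrier Slc19a1 (1.86-fold, adjusted p = 0.0018). Slc19a1 also rose in FDMn against FD (1.55-fold, adjusted p = 0.014), and had fallen to 0.523-fold of Mock in FD (adjusted p = 0.00031). The Slc19a1 call in FDMn against FD ended without FDMn replicate 1 (adjusted p = 0.062). Ftcd, which feeds histidine carbon into folate, rose 1.53-fold in FD (adjusted p = 8.3e-05) and fell to 0.724-fold of FD in FDMn (adjusted p = 0.0025). Of 13 purine synthesis genes 2 rose and 6 fell in FD, among them Gart, which takes a formyl group from folate, at 0.615-fold (adjusted p = 5.3e-06). With median-of-ratios scaling 3 rose and 5 fell, and 1 rather than 2 rose without Mock replicate 3 or FD replicate 1 or 2. FDMn against FD gave 1 higher and 2 lower, and in FDI against FD 2 rose and 1 fell. The 2 lower in FDMn became 1 without FD replicate 1 or FDMn replicate 1 or 3, and the 1 higher became 2 without FD replicate 3.

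In the methionine cycle and transsulfuration 8 of 18 genes rose and 2 fell in FD. These were 9 and 1 with median-of-ratios scaling and 8 and 1 with quantile normalization. Without FD replicate 2 also, 1 gene of the list fell. With median-of-ratios scaling 2059 of all genes rose and 1972 fell in FD, and with quantile normalization 1782 and 2178. The shares below are for TPM without further scaling. Of all genes 11.2% rose and 29.9% fell in FD. The shares were 7.22% and 7.9% in FDMn against FD and 10.2% and 4.35% in FDI against FD. Mat1a, the liver enzyme that makes S-adenosylmethionine, rose 9.66-fold in FD (adjusted p = 1.1e-10). It fell to 0.451-fold of FD in FDMn (adjusted p = 1.5e-05) and to 0.555-fold in FDI (adjusted p = 0.00011). Cth rose 1.80-fold in FDMn (adjusted p = 2.2e-05) and 2.27-fold in FDI (adjusted p = 1.4e-06). In FDMn against FD 2 genes of the list rose and 4 fell (3 and 8 at an unadjusted p under 0.05, with no share of all genes given). Without FD replicate 1 or FDMn replicate 2 or 3, 1 rather than 2 rose. In FDI against FD 3 rose and 3 fell, and 2 rose and 3 fell with either scaling. In that comparison 878 of all genes rose and 671 fell with median-of-ratios scaling, and 795 and 690 with quantile normalization.

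Of 10 other proline genes measured 5 rose and 1 fell in FD, 0 rose and 4 fell in FDMn against FD, and 0 passed in FDI against FD. At an unadjusted p under 0.05 these were 0 and 5 in FDMn, and 1 higher in FDI, with no share of all genes given. The 4 lower in FDMn became 2 without FD replicate 1 or 2 or FDMn replicate 1, and 1 without FDMn replicate 3. Of all genes 11.2% rose and 29.9% fell in FD. The shares were 7.22% and 7.9% in FDMn against FD and 10.2% and 4.35% in FDI against FD. Oat, which makes the same pyrroline intermediate from ornithine, was at 27.0, 29.2 and 29.3 TPM in FD, against 8.82, 10.2 and 11.6 TPM in Mock (log2 change 1.40, adjusted p = 1.9e-07). Aldh4a1, which oxidises that intermediate to glutamate, rose 2.78-fold (adjusted p = 2.7e-08), and the collagen prolyl hydroxylase subunit P4ha1 2.66-fold (adjusted p = 2.1e-06). Pycrl, which also encodes an enzyme of the last synthetic step, fell to 0.598-fold of Mock in FD (adjusted p = 0.0018). In FDMn Oat fell to 0.780-fold of FD (adjusted p = 0.026) and Prodh, the proline oxidase, to 0.752-fold of FD (adjusted p = 0.016). The Oat call ended without FD replicate 2 or 3 or FDMn replicate 1, 2 or 3 (adjusted p = 0.053 to 0.090), and the Prodh call without FD replicate 1 or FDMn replicate 3 (adjusted p = 0.062 to 0.064).

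**Figure D4:**
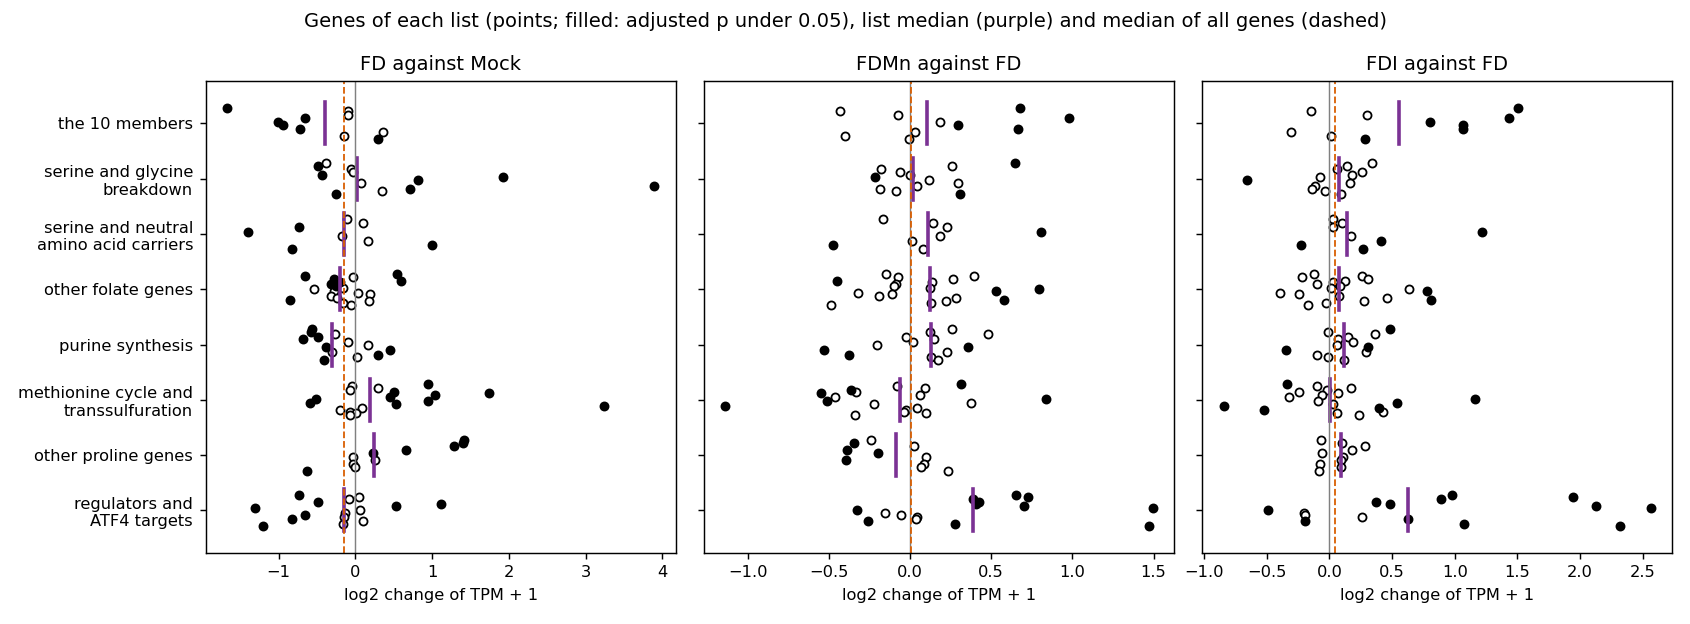
Log2 change of TPM + 1 for each measured gene of the 10 members and 7 neighbouring lists in 3 comparisons; filled points passed an adjusted p of 0.05, purple bars are list medians and the dashed line the median of all genes. In FDI against FD the members had a median of 0.55 and the other proline genes 0.09.

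ATF4 and genes known as its targets were measured beside the 10 genes. Atf4 RNA was at 235, 232 and 226 TPM in FDMn, 328, 313 and 340.4 TPM in FDI, 179, 179 and 172 TPM in FD and 175, 209 and 179 TPM in Mock. The log2 change was −0.08 ± 0.07 in FD against Mock (SE, adjusted p = 0.34), 0.89 ± 0.07 in FDI against FD (adjusted p = 4.4e-06) and 0.39 ± 0.07 in FDMn against FD (adjusted p = 0.0019). The FD and Mock libraries overlapped, while FDMn lay above FD and FDI above FDMn. Asns was at 52.1, 56.6 and 59.3 TPM in FD, against 84.6, 117 and 83.7 TPM in Mock (log2 change −0.74, adjusted p = 0.00021). It rose 1.98-fold over FD in FDI (adjusted p = 0.00013) and 1.58-fold over FD in FDMn (adjusted p = 0.0021).

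Ddit3, which encodes the stress factor CHOP, was at 40.2, 39.8 and 35.8 TPM in FDMn, 85.8, 76.3 and 84.4 TPM in FDI, 12.4, 15.8 and 11.3 TPM in FD and 46.4, 26.9 and 30.6 TPM in Mock. Trib3, a pseudokinase gene induced by ATF4 and CHOP, fell to 0.415-fold of Mock in FD (adjusted p = 0.00041) and rose 5.18-fold in FDI and 2.84-fold in FDMn over FD (adjusted p = 1.4e-05 and 0.00046). Chac1, which degrades glutathione, rose in FD (1.47-fold, adjusted p = 0.0015), unlike these, and was 4.59-fold of FD in FDI and 1.67-fold in FDMn (adjusted p = 3.7e-07 and 8e-04).

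Of the 15 regulators and targets 2 rose and 6 fell in FD (4 and 6 with median-of-ratios scaling). In FDMn against FD 9 rose and 2 fell, and in FDI against FD 10 rose and 2 fell. FDMn against FDI had 7 lower and 0 higher (8 and 1 at an unadjusted p under 0.05, with no share of all genes given). With median-of-ratios scaling 2059 of all genes rose and 1972 fell in FD, and the shares below are for TPM without it. Of all genes 11.2% rose and 29.9% fell in FD. The shares were 7.22% and 7.9% in FDMn against FD and 10.2% and 4.35% in FDI against FD. In FDMn against FDI 11.9% of all genes were lower and 5.68% higher. Myc, a growth factor-induced transcription factor known to act on serine and folate genes, was at 110.2, 101 and 106 TPM in FDMn, 164, 149.8 and 168 TPM in FDI, 104, 101 and 105 TPM in FD and 176, 199 and 176 TPM in Mock. Myc changed by −0.82 on the log2 scale in FD against Mock (adjusted p = 8.7e-07) and 0.63 in FDI against FD (adjusted p = 5.6e-05). FDMn against FD gave 0.03 and did not pass (adjusted p = 0.78). Nfe2l2, the NRF2 gene, was at 0.834-fold of FD in FDMn (adjusted p = 0.0092) and 0.872-fold in FDI (adjusted p = 0.038), the FDI call ending in 9 of 20 alternatives, among them those without Mock replicate 1 or any single FD or FDI library (adjusted p = 0.050 to 0.11 over the 9). Among the kinases that act upstream of ATF4, Eif2ak3 fell in FD (0.610-fold, adjusted p = 0.0027). Eif2ak1 fell in FDMn (0.789-fold of FD, adjusted p = 0.0094) and in FDI (0.700-fold of FD, adjusted p = 0.00078), and Eif2ak2 and Eif2ak4 did not pass in any of these 3 comparisons. RNA levels say nothing of the translation of Atf4, which was not measured. The part of any regulator in the changes of the 10 genes was not tested.

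**Figure D5:**
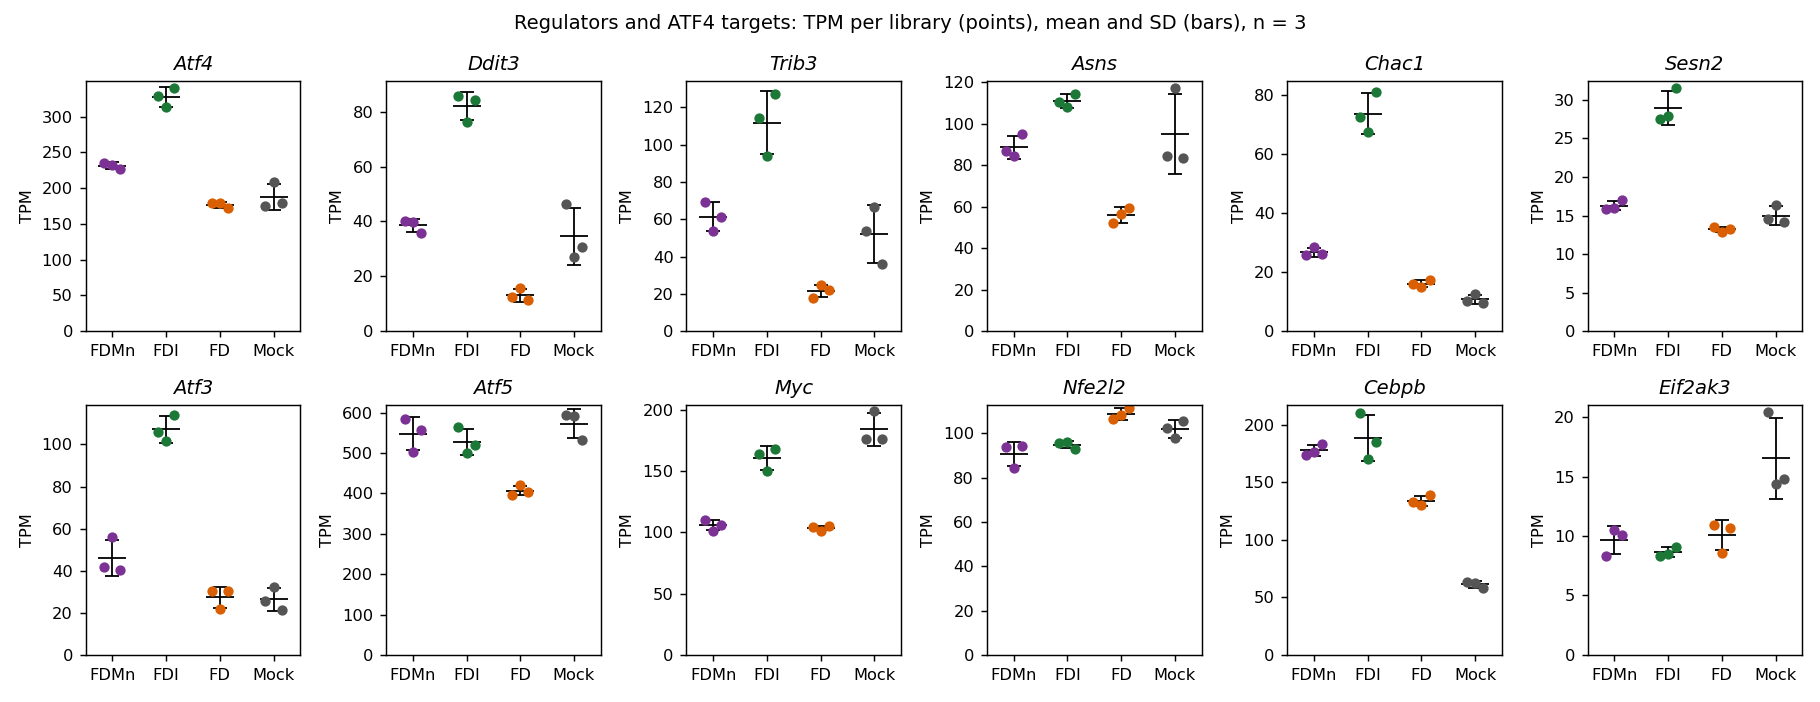
TPM of 12 regulators and ATF4 targets in the 12 libraries (points), with the group mean and SD (bars, n = 3). Atf4 lies at 226 to 235 TPM in FDMn, 313 to 340.4 TPM in FDI, 172 to 179 TPM in FD and 175 to 209 TPM in Mock, and Myc is lower in FDMn than in FDI.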

How the data were processed

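The authors deposited 1 table of TPM for 36144 genes in 12 libraries, with each column summing to 1000000. The submitters' processing notes name kallisto 0.44.0 and GRCm38.p6, and DESeq2 without a role; no source used here gives the annotation release, strand setting or gene summing. TPM keeps no read number, so depth is unknown and no counting interval is given. Columns were matched to samples by library name. The treatment protocol mentions 1 or 100 nM insulin; the label of the FDI samples gives 100 nM.

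Genes with at least 1 TPM in at least 3 samples were kept (11544). A model with 1 term per group was fitted to log2(TPM + 1) of all 12 samples with limma 3.58.1 (R 4.3.3, trended prior, two-sided), with Benjamini-Hochberg adjustment over all genes kept and a threshold of 0.05. Log2 changes understate low genes; folds are ratios of mean TPM. The fit was tested on simulated data. Shares of all genes called are for TPM without further scaling. They are given at the adjusted threshold only, so counts at an unadjusted p have no share beside them. Alternatives were pseudocounts of 0.1 and 0.5, no filter or a minimum of 5 TPM, median-of-ratios and quantile scaling, a replicate block, fits of 2 groups, and leaving out each library. The members and gene lists were chosen with earlier results of these data known, as were the tests. All 10 members are described, and every gene of the regulator and proline lists could be named. Up to 3 genes with the smallest adjusted p per comparison were taken from the other lists. Amt, Gcsh and Dld are given beside Gldc as genes of the same enzyme system, whatever their adjusted p. Of the listed symbols, Adss2 and Pycr3 did not match the table, which has Adss and Pycrl. Promoter sequences are RefSeq's (GRCm38.p6) and coordinates GENCODE M21's. Some results for genes of these lists are not reported here.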

Additional observations from a re-analysis of the deposited data

How the results depend on the processing

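Of 33 member calls over the 6 comparisons, 24 held under all alternatives tried (20 for each result, less 1 for Pycr1, which the minimum of 5 TPM drops), 9 ended under at least 1, and 0 changed sign. The 5 genes called lower in FD against Mock, and Mthfd2, Psph and Aldh18a1 in FDMn against FD, were among those that held. Leaving out 1 library gave 4 to 7 members lower in FDMn than in FDI, 0 to 1 lower in FDMn than in FD, and 1 to 3 higher and 3 to 5 lower in FDMn than in Mock. Members higher in FD against Mock were 2 with either scaling, and members lower in FDMn against Mock were 3 with either scaling and with no filter.

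Among all genes, median-of-ratios scaling gave 2059 higher and 1972 lower in FD against Mock, and 2115 higher and 2035 lower in FDMn against Mock. Quantile normalization gave 2178 lower in FD against Mock, 2314 lower in FDMn against Mock and 909 lower in FDMn against FDI. A fit of FDI and FD alone gave 681 higher and 304 lower. Leaving out 1 library gave 478 to 1005 higher and 540 to 1020 lower in FDMn against FD, 733 to 1438 higher and 321 to 683 lower in FDI against FD, and 404 to 715 higher in FDMn against FDI.

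Log2 changes that had not passed changed sign in some alternatives, none of them past the threshold. In FD against Mock, Shmt1 was 0.015, Mthfd1 0.064 and Mthfd1l 0.069 with median-of-ratios scaling, and Mthfd1 0.037 and Mthfd1l 0.039 with quantile normalization. Leaving out 1 library gave −0.28 to 0.058 for Shmt1, −0.22 to 0.055 for Mthfd1 and −0.16 to 0.022 for Mthfd1l. In FDMn against FD, Shmt2 was 0.042 with quantile normalization, and without 1 library Shmt2 was −0.059 to 0.081, Mthfd1l −0.19 to 0.027 and Pycr1 −0.077 to 0.20. For FDI against FD, Shmt1 was −0.030 and −0.049 with median-of-ratios and quantile scaling and −0.082 to 0.10 without 1 library. For FDMn against Mock, Psph was 0.091 and 0.079 with these scalings. For FDI against Mock without 1 library, Shmt1 was −0.27 to 0.071 and Pycr1 −0.087 to 0.16. The causes were not tested.

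With the replicate number as a block, 6 members rather than 7 were lower in FDMn than in FDI, the call lost being Mthfd1l (adjusted p = 0.077). The block also gave 1 higher and 0 lower, rather than 2 and 1, among serine and glycine breakdown genes in FDMn against FD. The labels tie the numbers to no batch. In deviations from the group means, 0 of 18 same-numbered pairs had r above 0.1. The highest r was 0.068 for same-numbered pairs and 0.090 for other pairs. Of the 12 libraries, 5 correlated best with a library of their own number. Depth is unknown for TPM, so the counting error of low genes such as Pycr1 cannot be given.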
